A study of Mus musculus with 6 samples.

Results

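The genes that build the nuclear pore and carry cargo through it were followed in mouse liver. Members were taken by symbol from the platform annotation: the Nup, Kpna, Kpnb, Ipo, Xpo and Tnpo genes, with Cse1l, Ran, Rangap1, Ranbp1, Ndc1 and Rae1. This gave 48 genes of 19057 named on the array, 22 of them pore proteins and 26 transport receptors or genes of the Ran cycle. Livers of C57Bl/6N mice aged 8 weeks were compared between 3 samples from mice given tunicamycin at 2.5 mg/kg into the abdomen and 3 from mice given an equal volume of vehicle. The drug had been dissolved in DMSO and diluted in PBS with glucose, and livers were taken 12 hours later. The sex of the mice is not stated, and each array held the RNA of 1 sample. Tunicamycin stops N-linked glycosylation and so burdens the endoplasmic reticulum (ER). Nothing in the sources used here says whether mice were pooled, and where samples share a source the p-values cover only the spread between these arrays.

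The nuclear pore is a ring-shaped channel in the nuclear envelope, built from scaffold rings, a membrane anchor, a central channel of flexible proteins, filaments on the cytoplasmic side and a basket on the nuclear side. Importins bind cargo in the cytoplasm and release it in the nucleus when they meet the small GTPase Ran in its GTP form, while exportins leave the nucleus together with cargo and Ran-GTP. In the cytoplasm, RanGAP1 and RanBP1 turn Ran-GTP into Ran-GDP, which keeps the 2 forms apart. A growing or protein-making cell relies on this traffic to bring ribosomal proteins into the nucleus and to send tRNA, mRNA and ribosomal subunits out.

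Of the 48 genes, 38 passed the filter, which asked for detection (p under 0.05) on 3 or more arrays of the 6, and were tested within the fit over all 11678 items. Values are log2 of the background-corrected, quantile-normalized bead signal of the brightest probe per gene, and a change is called at an adjusted p under 0.05 in limma's moderated test. In tunicamycin livers 26 of the 38 tested genes rose, 3 fell and 9 did not pass the test, where 31.0% of all items rose, 31.4% fell and 62.5% did either. The rising share among the tested transport genes was 68.4% and the falling share 7.89%. Members were chosen with earlier results of these data known, so these shares only describe them. Their median log2 fold change was 0.65, against -0.0081 for all items. It was 0.30 without background correction and 0.44 with an offset of 50 in place of 16, and 0.40 over all 48 members without the detection filter. A rise of at least 2-fold was found for 9 of the 38, or 23.7%, where 11.1% of all items had one, and no member fell by that much. The 3 tunicamycin values lay wholly above the 3 vehicle values in 28 of the 38, where 33.2% of all items did so, and wholly below them in 2, where 33.5% did so. Groups without overlap in either direction made up 66.7% of all items. Xpo4, counted among the 26 and the 28, was detected on no vehicle array. It passed the filter through the tunicamycin arrays alone, so its test carries no weight. All these counts cover only the genes that passed the filter, of which 35 were detected on all 6 arrays. Among those 35, in a fit limited to probes detected on every array, 23 rose and 3 fell. In that fit of 9469 items, 34.0% of all items rose and 67.3% changed in either direction.

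**Figure D1:**
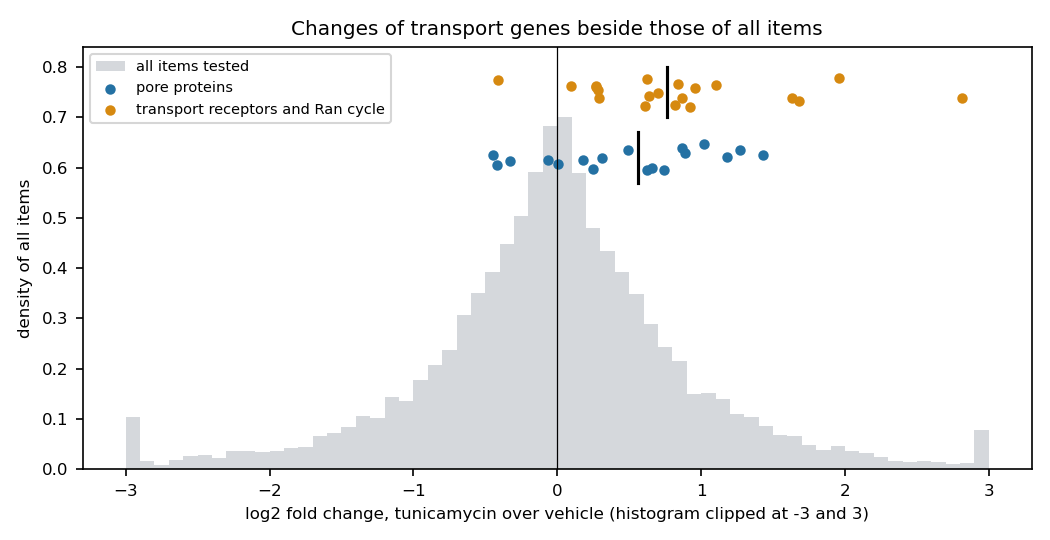
Log2 fold changes of the 38 tested transport genes (points, tunicamycin over vehicle, spread vertically for display with no meaning of height) above the density of the 11678 items tested (grey, with values beyond the axis gathered in the end bins). Black bars mark medians, 0.76 for the 20 transport receptors and Ran cycle genes and 0.56 for the 18 pore proteins, both right of the centre of the grey distribution.

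The arrays themselves were alike in quality, with 15503 to 16603 of 45281 probes detected on each and median raw signals of 88.9 to 96.8. Across items, correlations were 0.989 to 0.995 within groups and 0.889 to 0.903 between groups. The tunicamycin response was present on all arrays of that group: Ddit3, the stress factor CHOP, had log2 signals of 13.74, 13.91 and 13.77 in tunicamycin livers and 5.61, 5.71 and 5.76 in vehicle livers. Hepatocyte markers were measured, with 6 of 8 detected on every array, though the Alb probe was near background in both groups and Tat was undetected. The summed hepatocyte marker signal was 66426 to 69558 in tunicamycin livers and 86931 to 91629 in vehicle livers. The sum of 8 macrophage markers was 416 to 1598 in tunicamycin livers and 2303 to 3434 in vehicle livers, with Cd5l undetected. Sums of 7 endothelial markers were 2722 to 2907 in tunicamycin livers and 3172 to 3717 in vehicle livers, and those of 6 stellate markers, with Col3a1 undetected, were 3264 to 3451 in tunicamycin livers and 3783 to 3965 in vehicle livers. The macrophage, endothelial and stellate sums, like the hepatocyte sum, were lower in tunicamycin livers without overlap. Of 6 markers of cycling cells, 0 were detected on every array, and their sum was 37.3 to 42.2 in tunicamycin livers and 36.8 to 63.3 in vehicle livers. Cholangiocyte sums were 160 to 252 in tunicamycin livers and 196 to 298 in vehicle livers, with Krt19 and Epcam undetected. The cycling and cholangiocyte ranges overlapped between groups, as did those of neutrophil markers. Neutrophil sums were 106 to 213 in tunicamycin livers and 50.6 to 154 in vehicle livers. Sums of 5 T and B cell markers were 21.1 to 29.0 in tunicamycin livers and 39.0 to 63.4 in vehicle livers, with Cd8a and Ms4a1 undetected, and those of 2 erythroid markers were 6441 to 10227 in tunicamycin livers and 10460 to 14185 in vehicle livers. The part of these shifts in the results was not tested, and in whole liver a change in the number of cells of a type cannot be told apart from a change in RNA per cell.

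The largest changes of all members were in importers that carry ribosomal proteins and histones. Ipo5, a receptor of this kind, had log2 signals of 9.77, 9.55 and 10.07 in tunicamycin livers and 7.36, 6.82 and 6.77 in vehicle livers. The groups lay far apart, and the rise was 7.02-fold (2.81 ± 0.18 in log2, with SE, adjusted p = 5.78e-07). Ipo4, which also carries ribosomal proteins and histones, had 9.47, 9.26 and 9.54 in tunicamycin livers and 7.33, 7.26 and 7.80 in vehicle livers. Its rise was 3.89-fold (log2 fold change 1.96 ± 0.15, adjusted p = 2.24e-06), again without overlap. Both genes were detected on every array, with raw signals of at least 680.0 for Ipo4 and 809.8 for Ipo5 in tunicamycin livers. In vehicle livers raw signals were 216.9 to 276.5 for Ipo4 and 173.5 to 246.4 for Ipo5. A second Ipo5 probe, not used, had raw signals of 85.8 to 102.4, with detection on 1 of 3 tunicamycin arrays and no vehicle array.

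**Figure D2:**
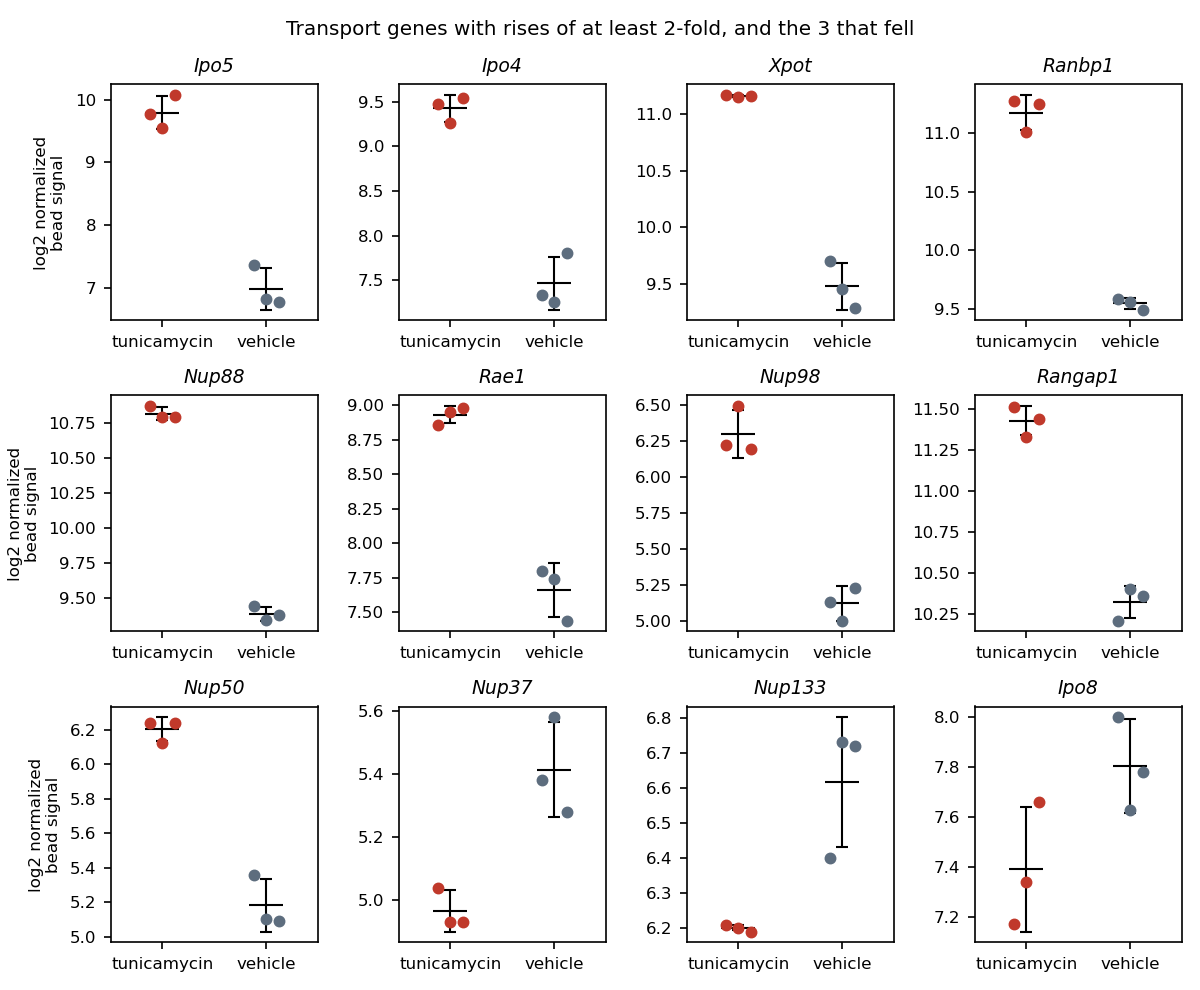
Log2 normalized bead signal per array (points, 3 tunicamycin arrays left and 3 vehicle arrays right) with group mean and SD (black), each panel on its own scale. The 9 genes that rose at least 2-fold have tunicamycin values wholly above vehicle values, where 33.2% of all items do so. Among the 3 that fell, Ipo8 has tunicamycin replicate 3 at 7.66, above vehicle replicate 2 at 7.63.

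Ipo7 and Ipo8 are close paralogs, and their signals moved in opposite directions. Ipo7, an importer of ribosomal proteins and histone H1, had log2 signals of 5.38, 5.45 and 5.70 in tunicamycin livers and 4.75, 4.58 and 4.61 in vehicle livers, a rise of 0.86 ± 0.12 on the log2 scale (adjusted p = 0.000117). Ipo8 had 7.17, 7.34 and 7.66 in tunicamycin livers and 8.00, 7.63 and 7.78 in vehicle livers, and fell by 0.41 ± 0.15 (adjusted p = 0.0345) with overlapping groups. The 2 log2 fold changes differed by 1.28 ± 0.08 (unmoderated SE), and the difference between the genes was larger on every tunicamycin array than on any vehicle array. An exact two-sided permutation test gave p = 0.1, the smallest that 3 arrays against 3 allow, and 0.133 after Benjamini-Hochberg adjustment over the 4 gene pairs compared, which were chosen after their values were seen. The call of Ipo8 ended in 7 of 16 alternative settings, among them leaving out tunicamycin replicate 1 or 2 or vehicle replicate 1 or 3, where its log2 fold change was -0.42 to -0.30 and its adjusted p up to 0.135. Without background correction the rise of Ipo7 was 0.27. The Ipo7 probe was dim, with raw signals of 97.4 to 102.9 in vehicle livers. A second Ipo7 probe, not used, was detected on no array.

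The other members of the importin beta family rose by less than Ipo4 and Ipo5. Kpnb1, importin beta itself, which carries cargo together with an importin alpha adaptor, had 5.78, 6.32 and 6.51 in tunicamycin livers and 5.31, 5.66 and 5.54 in vehicle livers, and rose 1.63-fold (adjusted p = 0.007). Tunicamycin replicate 1 lay close to the vehicle values. Ipo13, which works in both directions, had 8.66, 8.41 and 8.68 in tunicamycin livers and 7.46, 7.85 and 7.66 in vehicle livers. The groups lay apart, and the rise was 1.90-fold (log2 fold change 0.93 ± 0.13, adjusted p = 0.000156). Tnpo3, the importer of SR splicing factors, had 8.52, 8.20 and 8.46 in tunicamycin livers and 7.69, 7.76 and 7.89 in vehicle livers, and rose 1.53-fold without overlap. Tnpo2, a transportin for RNA-binding proteins, had 9.63, 9.65 and 9.52 in tunicamycin livers and 8.91, 8.59 and 8.79 in vehicle livers. It rose 1.79-fold by its brighter probe, but the dimmer probe gave 0.16 and the brighter 0.84 on the log2 scale, so the size depends on the probe. Ipo9, an importer of histones and actin, had 7.33, 7.34 and 7.38 in tunicamycin livers and 7.11, 6.94 and 7.14 in vehicle livers. It rose by 0.28 ± 0.10 (adjusted p = 0.0353), a call that ended without vehicle replicate 2 (adjusted p = 0.135) or without any of the 3 tunicamycin arrays (0.069 to 0.088). In all, 8 of 9 tested importers of this family rose and 1 fell, with a median log2 fold change of 0.84. Of all items, 31.0% rose and 31.4% fell.

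Promoter sequence was at hand for 39 of the 48 genes in RefSeq's table on GRCm38.p6, as windows of 250 bases before to 50 after an annotated start. The windows of the 2 importers with the largest rises, of the Ipo7 and Ipo8 pair that moved apart, and of Xpot and Ran, described later, are shown 5′ to 3′ on the gene's strand. Capitals mark CACGTG (the E-box), CCGGAA (an ETS motif), CCAAT (the NF-Y motif) or the palindromic NRF1 motif, found on either strand. The positions are chr14:120910944-120911243, plus strand for Ipo5, chr14:55635635-55635934, minus strand for Ipo4, chr7:110018065-110018364, plus strand for Ipo7, chr6:148831418-148831717, minus strand for Ipo8, chr10:121626283-121626582, minus strand for Xpot and chr5:129019906-129020205, plus strand for Ran. Ipo5 has a second annotated start, not shown, with 0 matches.
Ipo5: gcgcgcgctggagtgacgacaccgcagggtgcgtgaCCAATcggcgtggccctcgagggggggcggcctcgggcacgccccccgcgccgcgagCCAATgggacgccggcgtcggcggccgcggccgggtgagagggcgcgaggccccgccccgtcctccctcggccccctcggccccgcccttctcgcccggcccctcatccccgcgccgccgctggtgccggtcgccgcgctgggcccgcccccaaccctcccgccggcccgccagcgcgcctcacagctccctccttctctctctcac
Ipo4: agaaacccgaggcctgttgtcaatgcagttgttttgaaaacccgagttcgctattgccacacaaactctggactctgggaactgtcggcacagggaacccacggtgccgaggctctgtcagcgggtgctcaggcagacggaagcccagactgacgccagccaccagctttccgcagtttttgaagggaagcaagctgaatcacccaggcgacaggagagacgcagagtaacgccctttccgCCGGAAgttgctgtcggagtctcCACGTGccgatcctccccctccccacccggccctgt
Ipo7: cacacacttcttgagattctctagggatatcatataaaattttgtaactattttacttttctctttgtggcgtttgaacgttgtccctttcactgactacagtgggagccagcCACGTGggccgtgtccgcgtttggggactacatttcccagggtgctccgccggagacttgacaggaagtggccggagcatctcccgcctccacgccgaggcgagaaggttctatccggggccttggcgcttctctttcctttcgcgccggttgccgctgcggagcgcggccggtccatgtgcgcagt
Ipo8: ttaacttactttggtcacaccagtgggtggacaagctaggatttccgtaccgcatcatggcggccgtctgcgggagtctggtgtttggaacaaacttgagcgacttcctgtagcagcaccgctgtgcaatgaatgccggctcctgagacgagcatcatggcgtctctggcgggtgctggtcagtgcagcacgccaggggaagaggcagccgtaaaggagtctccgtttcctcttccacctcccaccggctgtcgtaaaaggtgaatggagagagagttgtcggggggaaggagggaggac
Xpot: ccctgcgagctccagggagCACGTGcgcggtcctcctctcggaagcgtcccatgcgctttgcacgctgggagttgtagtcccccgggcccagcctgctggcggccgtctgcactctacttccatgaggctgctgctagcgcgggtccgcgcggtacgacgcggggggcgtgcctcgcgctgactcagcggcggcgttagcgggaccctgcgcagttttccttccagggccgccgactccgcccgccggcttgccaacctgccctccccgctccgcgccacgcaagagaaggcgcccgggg
Ran: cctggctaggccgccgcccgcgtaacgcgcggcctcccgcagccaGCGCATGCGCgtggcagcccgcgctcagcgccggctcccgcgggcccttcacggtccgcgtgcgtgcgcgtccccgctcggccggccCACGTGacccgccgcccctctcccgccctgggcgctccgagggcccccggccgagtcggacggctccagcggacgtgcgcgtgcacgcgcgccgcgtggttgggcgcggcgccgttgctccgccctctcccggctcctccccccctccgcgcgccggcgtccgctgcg

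Of these windows, those of Ipo4, Ipo7, Xpot and Ran held an E-box each, that of Ran also the NRF1 motif, that of Ipo4 also the ETS motif, and that of Ipo5 had 2 CCAAT matches. The Ipo8 window held none of the letters searched. Nup88, Ranbp1, Rae1, Nup98, Rangap1 and Nup50 rose more than Ran, and their windows, not shown, held no E-box. The windows shown are therefore no fair sample of the rising genes. Over the 46 windows of the 39 genes, some of which overlap each other, CACGTG was in 17.4%, against 7.2% of all 32851 windows of this length in the table. CCGGAA was in 28.3% of member windows and 14.9% of all, CCAAT in 23 of the 46 member windows and 37.4% of all, and the NRF1 motif in 10.9% and 1.0%. TGACGT, the core of the CRE motif bound by ATF factors, was in 6.5% of member windows and 7.5% of all, and TGATGNAA, a composite C/EBP-ATF motif, in 0 of 46 and in 4.0% of all. Member windows had a median GC content of 64.5%, against 52.7% for all windows, and the part of base composition in these shares was not tested. Counted by gene, CACGTG was in windows of 6 of the 22 rising genes and 8 of all 39, CCGGAA in 6 of 22 and 11 of 39, CCAAT in 9 of 22 and 20 of 39, the NRF1 motif in 4 of 22 and 5 of 39, and TGACGT in 0 of 22 and 3 of 39. A match is only a run of letters.

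All 3 measured genes of the Ran cycle rose, where 31.0% of all items did so. Ranbp1, which helps RanGAP1 to act on Ran-GTP released from receptors, had log2 signals of 11.28, 11.01 and 11.25 in tunicamycin livers and 9.58, 9.56 and 9.49 in vehicle livers. It rose 3.10-fold (log2 fold change 1.63 ± 0.11, adjusted p = 8.24e-07). Rangap1, the GTPase-activating protein, had 11.51, 11.33 and 11.44 in tunicamycin livers and 10.21, 10.40 and 10.36 in vehicle livers, a rise of 2.15-fold with its 3 detected probes between 0.95 and 1.10 on the log2 scale. The GTPase gene Ran had 6.97, 6.69 and 7.21 in tunicamycin livers and 6.04, 6.01 and 5.95 in vehicle livers, and rose 1.94-fold (adjusted p = 0.00015). For all 3 genes the tunicamycin values lay wholly above the vehicle values, where 33.2% of all items did so. Nutf2, which returns Ran-GDP to the nucleus, was not analysed here.

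Among the exportins, the tRNA carrier had the largest rise. Xpot, exportin-t, had log2 signals of 11.17, 11.15 and 11.16 in tunicamycin livers and 9.70, 9.45 and 9.29 in vehicle livers. It rose 3.21-fold (log2 fold change 1.68 ± 0.12, adjusted p = 1.28e-06), and its 2 probes gave 1.68 and 1.70. Xpo5, which exports microRNA precursors, had 5.94, 6.07 and 6.01 in tunicamycin livers and 5.30, 5.15 and 5.11 in vehicle livers, and rose 1.76-fold. Xpo7 had 5.57, 5.24 and 5.48 in tunicamycin livers and 5.01, 4.50 and 4.92 in vehicle livers. It rose 1.54-fold without overlap, with detection on 2 of 3 vehicle arrays. Xpo4, a carrier of the translation factor eIF5A, had 5.17, 4.77 and 5.08 in tunicamycin livers, where every array detected it, and 4.34, 4.41 and 4.35 in vehicle livers, where none did. It was at least 1.39-fold higher in tunicamycin livers, but it passed the filter through the tunicamycin arrays alone, so its test carries no weight. The actin exporter Xpo6 had 7.82, 7.63 and 7.89 in tunicamycin livers and 7.61, 7.36 and 7.56 in vehicle livers, and did not pass the test although the groups did not overlap (log2 fold change 0.27 ± 0.12, adjusted p = 0.0702). It passed without tunicamycin replicate 2, without background correction, with an offset of 50 and with median scaling (adjusted p = 0.0429 to 0.0482). Nor did Cse1l, which returns importin alpha to the cytoplasm, with 7.30, 7.20 and 7.61 in tunicamycin livers and 7.44, 7.11 and 7.27 in vehicle livers (0.10 ± 0.14, adjusted p = 0.565). Of the 5 tested exportins that vehicle arrays also detected, 3 rose and 0 fell, where 31.0% of all items rose and 31.4% fell. Xpo1, the main protein exportin, had 2 probes, and neither was detected on any array.

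Importin alpha adaptors, which link cargo to Kpnb1, showed small differences or could not be tested. Kpna1 had log2 signals of 8.13, 8.16 and 8.18 in tunicamycin livers and 7.90, 7.92 and 7.84 in vehicle livers, a tight separation of 0.27 ± 0.10 (adjusted p = 0.0331) that lost its call when any tunicamycin array or vehicle replicate 2 or 3 was left out (adjusted p = 0.0627 to 0.0938). Kpna6 had overlapping groups, with 5.50, 5.53 and 5.23 in tunicamycin livers and 4.99, 5.35 and 5.05 in vehicle livers. Its difference of 0.29 ± 0.13 did not pass the test (adjusted p = 0.0844), but did without tunicamycin replicate 3 or vehicle replicate 2 (0.0431 and 0.0332). Kpna2 was detected on 1 of 3 tunicamycin arrays and Kpna3 on 2 of 3, neither on a vehicle array, and Kpna4 on no array.

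**Figure D3:**
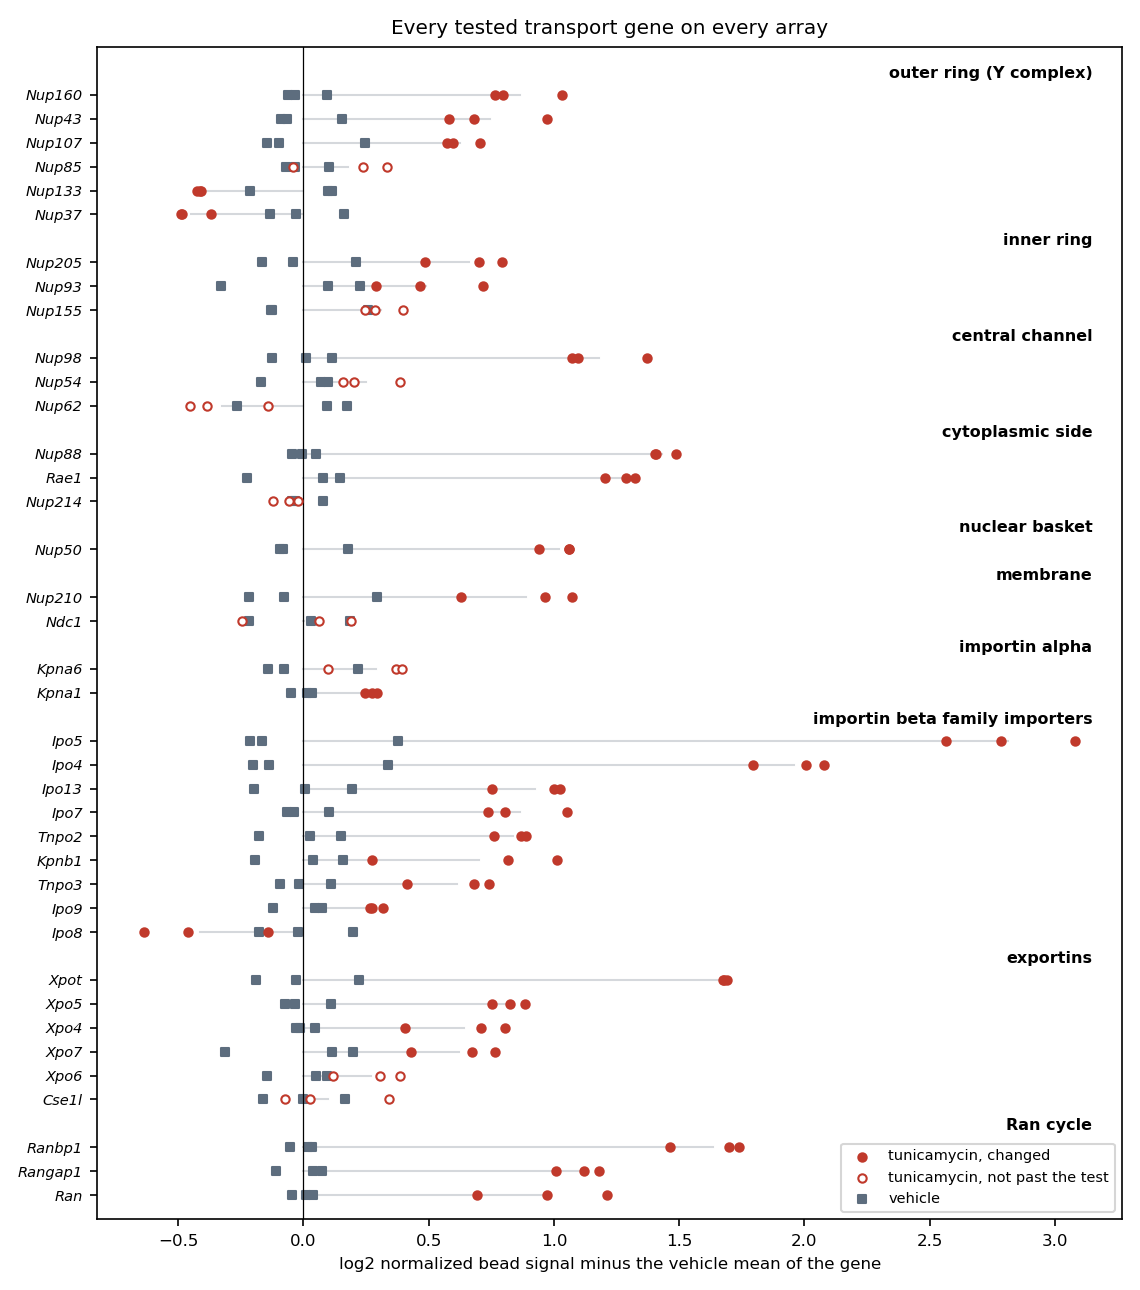
Every tested transport gene by role, as log2 normalized bead signal minus the gene's vehicle mean, with 1 point per array (red circles tunicamycin, filled where the gene changed and open where it did not pass the test; grey squares vehicle; grey lines run to the log2 fold change). Ipo5 lies farthest to the right, and Nup37, Nup133 and Ipo8 are the 3 called genes left of 0. Xpo4 is drawn filled although it passed the filter through the tunicamycin arrays alone.

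Of 18 tested pore proteins, 10 rose (55.6%) and 2 fell (11.1%), where 31.0% of all items rose and 31.4% fell. On the cytoplasmic side, Nup88 had log2 signals of 10.87, 10.79 and 10.79 in tunicamycin livers and 9.44, 9.34 and 9.38 in vehicle livers, a 2.70-fold rise (log2 fold change 1.43 ± 0.10, adjusted p = 8.7e-07) that its second detected probe gave as 1.53. Nup214, which forms a complex with Nup88, had 5.75, 5.65 and 5.72 in tunicamycin livers and 5.85, 5.73 and 5.74 in vehicle livers, with overlapping groups (-0.07 ± 0.10, adjusted p = 0.586). The 2 log2 fold changes differed by 1.497 ± 0.025 (unmoderated SE), with no overlap between groups. That SE rests on 3 arrays per group and is below the moderated 0.10 of each gene, so the precision may be overstated. The pair was chosen after its values were seen. The exact permutation p was 0.1, or 0.133 adjusted over the 4 pairs.

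Rae1 and Nup98, which bind each other and take part in mRNA export, both rose. Rae1 had 8.86, 8.95 and 8.98 in tunicamycin livers and 7.80, 7.74 and 7.44 in vehicle livers (2.42-fold, adjusted p = 9.04e-06). Nup98 had 6.22, 6.49 and 6.19 in tunicamycin livers and 5.13, 5.0 and 5.23 in vehicle livers, a log2 fold change of 1.18 ± 0.12, or 2.27-fold, with its 2 detected probes at 1.18 and 1.21. The log2 fold change of Rae1 exceeded that of Nup98 by 0.09 ± 0.19 (SE, exact permutation p = 0.7). Nup50, a basket protein that helps to unload importin alpha, had 6.24, 6.12 and 6.24 in tunicamycin livers and 5.36, 5.10 and 5.09 in vehicle livers, and rose 2.03-fold with all 3 probes between 0.80 and 1.07. Without background correction the log2 fold changes of Nup98 and Nup50 were 0.49 and 0.42.

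In the outer scaffold ring, the Y complex, 3 of 6 tested members rose and 2 fell. The falling share, 33.3%, was near the 31.4% of all items, and 31.0% of all items rose. Sec13 and Seh1l, of the same complex but outside the symbol rule, rose 1.85-fold and 2.70-fold. Nup160 had log2 signals of 6.86, 6.89 and 7.13 in tunicamycin livers and 6.19, 6.06 and 6.03 in vehicle livers (1.82-fold higher, adjusted p = 8.93e-05). Nup43 had 7.21, 7.11 and 7.50 in tunicamycin livers and 6.68, 6.44 and 6.47 in vehicle livers, a rise of 1.67-fold. Nup107 had 5.35, 5.24 and 5.22 in tunicamycin livers and 4.54, 4.89 and 4.50 in vehicle livers. The values of Nup160, Nup43 and Nup107 did not overlap between groups, and Nup107 rose 1.54-fold, with detection on 2 of 3 vehicle arrays. In the opposite direction, Nup133 had 6.21, 6.20 and 6.19 in tunicamycin livers and 6.40, 6.73 and 6.72 in vehicle livers. It fell by 0.42 ± 0.12 on the log2 scale (adjusted p = 0.0106), and its second detected probe gave -0.43. Nup37 had 5.04, 4.93 and 4.93 in tunicamycin livers and 5.38, 5.58 and 5.28 in vehicle livers, a dim signal that fell by 0.45 ± 0.11 (adjusted p = 0.00591). The groups of Nup133 and Nup37 did not overlap. Over all items, tunicamycin values lay wholly above vehicle values in 33.2% and wholly below them in 33.5%. Nup85 had 7.87, 7.49 and 7.78 in tunicamycin livers and 7.47, 7.51 and 7.64 in vehicle livers, overlapping groups that did not pass the test (0.18 ± 0.12, adjusted p = 0.243).

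Of the tested genes, 2 of 3 in the inner ring, 1 of 3 in the channel (Nup98, above) and 1 of 2 in the membrane rose, and 0 fell. Over all items 31.0% rose and 31.4% fell, and the rising share of the channel, 33.3%, was near the former. Nup205, of the inner ring, had 8.61, 8.39 and 8.70 in tunicamycin livers and 8.12, 7.87 and 7.74 in vehicle livers, and rose 1.58-fold (adjusted p = 0.0015). Nup93, which links inner ring and channel, had 7.12, 6.69 and 6.87 in tunicamycin livers and 6.63, 6.50 and 6.07 in vehicle livers. It rose 1.41-fold (adjusted p = 0.0242), a call lost without the detection filter (adjusted p = 0.104) and without tunicamycin replicate 1 or 3 or vehicle replicate 3 (0.053 to 0.0972). Nup155 had 1 vehicle value among the tunicamycin values and did not pass the test (0.31 ± 0.13, adjusted p = 0.059), but did without vehicle replicate 1 (0.44, adjusted p = 0.0065). In the channel, Nup62 had 6.56, 6.49 and 6.81 in tunicamycin livers and 6.68, 7.12 and 7.04 in vehicle livers, a difference of -0.33 ± 0.14 that did not pass the test (adjusted p = 0.0699), but did without tunicamycin replicate 3 or vehicle replicate 1 (0.0424 and 0.0113). Its partner Nup54 had 5.09, 5.05 and 5.27 in tunicamycin livers and 4.99, 4.96 and 4.72 in vehicle livers (0.25 ± 0.12, adjusted p = 0.0921). The 2 log2 fold changes differed by 0.57 ± 0.19 (unmoderated SE, exact permutation p = 0.1, adjusted 0.133), in a pair chosen after its values were seen. The membrane glycoprotein Nup210 had 9.69, 9.25 and 9.58 in tunicamycin livers and 8.91, 8.54 and 8.40 in vehicle livers, a rise of 1.85-fold (adjusted p = 0.000771). Ndc1, the other membrane anchor, had 5.17, 5.48 and 5.61 in tunicamycin livers and 5.45, 5.61 and 5.20 in vehicle livers, nearly the same range in both groups, with a log2 fold change of 0.0016 ± 0.15.

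The 10 members that were not tested had raw signals of 81.0 to 103.7 on all arrays, close to background, and 8 of them were detected on no array. They were Nup188 of the inner ring, Nup153 of the basket, Kpna2, Kpna3, Kpna4, Tnpo1, Xpo1 and the paralogs Kpna7, Nup210l and Nup62cl. In a fit of 29453 items with no detection filter, their log2 fold changes ran from -0.076 for Xpo1 to 0.19 for Kpna3, with adjusted p-values of 0.116 to 0.977. The 8 probes detected on no array give no measurement of their transcripts in either group. Tpr was not analysed here.

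Where several probes of a gene were detected, they gave like results in most cases. Other genes had several probes of which only 1 passed the filter, so their values rest on that probe. Ran, Ranbp1, Ipo5, Ipo7, Nup160, Tnpo3 and Xpo7 are among them, and the further probes of Ran and Ranbp1 were detected on no array. Among 9 genes with several detected probes, the probes had 1 sign in all 9, were called in opposite directions in 0, and in 6 genes every probe was called. Tnpo2 was the 1 gene whose probes lay more than 1.5 times apart. The median log2 difference of the 38 genes from the vehicle mean was 0.73, 0.53 and 0.74 on tunicamycin replicates 1, 2 and 3, and 0.06, -0.03 and -0.04 on vehicle replicates 1, 2 and 3. The same medians over all items stayed between -0.011 and 0.0037. Of the 26 rising genes, 16 had their lowest tunicamycin value on replicate 2, 7 on replicate 1 and 3 on replicate 3.

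Genes of the same pathways that the symbol rule leaves out were examined from 5 lists with 44 tested genes between them, of which 29 rose and 5 fell, with a median log2 fold change of 0.50. Over all items 31.0% rose, 31.4% fell and 62.5% did either, and the counts of each list stand against these shares. Ranbp2 and Gle1 each stand in 2 of the lists. The lists, like the members, were chosen with earlier results of these data known. The 29 include Sarnp, of mRNA export, which passed the filter through the tunicamycin arrays alone. Among other pore proteins, 7 of 8 rose and 0 fell, with a median log2 fold change of 0.76. Nupl2, a protein of the cytoplasmic filaments, had 7.64, 7.93 and 7.55 in tunicamycin livers and 5.55, 5.48 and 5.14 in vehicle livers, a 4.97-fold rise (adjusted p = 4.63e-07). Seh1l, of the Y complex, rose 2.70-fold, and Nupl1, also known as Nup58, the channel partner of Nup62 and Nup54, 2.48-fold. Sec13, which serves both the Y complex and the COPII coat of vesicles leaving the ER, rose 1.85-fold. Ranbp2, the large filament protein, did not pass the test (adjusted p = 0.151). Of 4 further cofactors of Ran, 3 rose and 0 fell. Rangrf, which binds Ran, rose 2.45-fold, and Rcc1, which loads Ran with GTP in the nucleus, rose 1.38-fold and Ranbp3 1.31-fold.

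**Figure D4:**
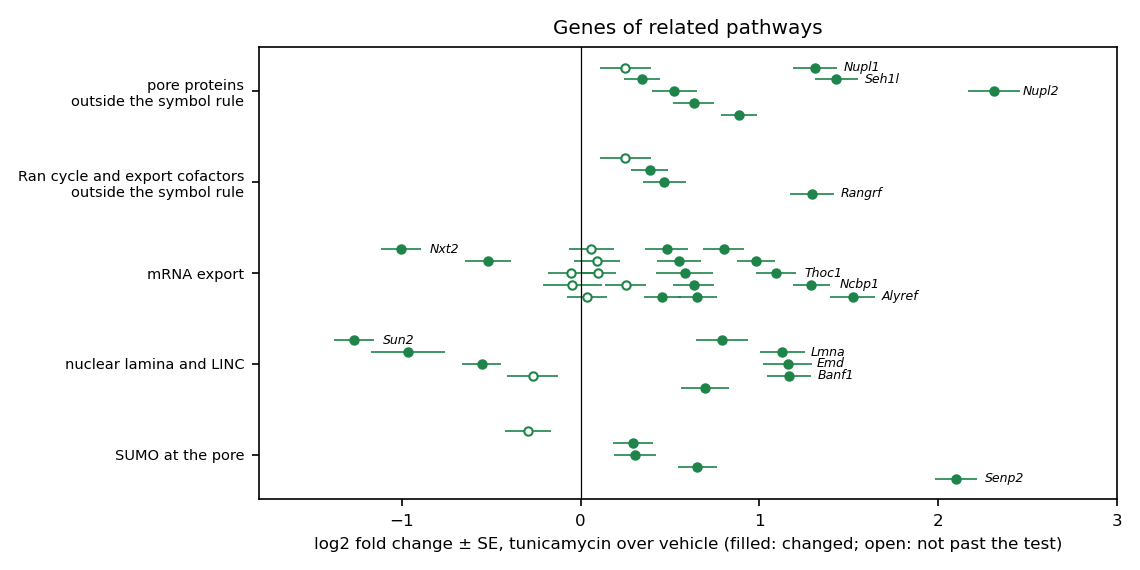
Log2 fold changes (points, tunicamycin over vehicle) with SE for the tested genes of 5 related lists, filled where the gene changed and open where it did not pass the test, with names for changes of at least 1 on the log2 scale. Pore proteins outside the symbol rule lie right of 0, while the lamina and LINC list spreads from Sun2 at -1.27 to Banf1 at 1.17. Sarnp is drawn filled although it passed the filter through the tunicamycin arrays alone.

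In mRNA export, 11 of 20 tested genes rose and 2 fell, with a median log2 fold change of 0.47. The share that changed, 65.0%, was near the 62.5% of all items. Among the 11 is Sarnp, which every tunicamycin array and no vehicle array detected. It passed the filter through the tunicamycin arrays alone, so its test carries no weight. Alyref, an adaptor that loads export factors on mRNA, rose 2.87-fold, the cap-binding subunit gene Ncbp1 2.45-fold and Thoc1, of the THO complex, 2.13-fold. By contrast, Alyref2 fell by 0.52 ± 0.13 on the log2 scale (adjusted p = 0.00549) without overlap. Its signal was dim, with detection on 2 of 3 tunicamycin arrays. Nxf1, the main mRNA export receptor, rose 1.40-fold. Its cofactor paralogs parted, as Nxt1 had 8.22, 8.10 and 8.12 in tunicamycin livers and 7.12, 7.30 and 7.08 in vehicle livers, whereas Nxt2 had 8.78, 8.95 and 8.71 in tunicamycin livers and 9.90, 9.72 and 9.84 in vehicle livers, so that Nxt1 was 1.98-fold higher and Nxt2 2.01-fold lower. The difference between Nxt1 and Nxt2 was not tested.

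Genes of the lamina and of the LINC complex, which ties the nucleus to the cytoskeleton, went both ways, with 5 of 9 rising and 3 falling, a falling share of 33.3%, near the 31.4% of all items. Lmna, Emd and Banf1 rose 2.19-fold, 2.23-fold and 2.25-fold, while Sun2, a LINC protein of the inner membrane, had 7.63, 7.71 and 7.55 in tunicamycin livers and 8.97, 8.74 and 8.98 in vehicle livers and fell by 1.27 ± 0.11 on the log2 scale. Sun1 fell by 0.55 and Lmnb1, a B-type lamin, by 0.97 on the log2 scale. Of 5 tested genes of the SUMO pathway, which modifies RanGAP1 at the pore, 4 rose and 0 fell, led by the SUMO protease gene Senp2 at 4.29-fold (adjusted p = 2.38e-07).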

How the data were processed

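Biotin-labelled cRNA from liver RNA was hybridised to Illumina bead arrays, with 3 tunicamycin and 3 vehicle samples, grouped by title. The deposited mean bead intensity per probe, per the file headers, was neither background-subtracted nor normalized, as read from its values. Each deposited detection p-value was taken from the column right of its signal. A second deposited table held intensity that, from its values, had been background-subtracted and quantile-normalized on a linear scale, and served as an alternative. The scanner is not given in the sources used here.

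Normalization used limma 3.58.1 (R 4.3.3): a normexp correction whose background was inferred from detection p-values, then 16 added, quantile normalization and log2, on which folds of dim genes are understated. Of 45281 probes 16559 passed the filter. The brightest probe per gene by mean raw signal was used, unnamed probes staying separate, which gave 11678 items, 9332 of them named. The platform annotation gave 34885 probes 1 symbol, 18 several and 10378 none, and all 48 members matched the GRCm38.p6 gene table. The test was lmFit and eBayes, two-sided, with Benjamini-Hochberg adjustment over all items and a threshold of 0.05. Errors after ± are SE, moderated in the fit of each gene. For the 4 gene pairs they are unmoderated, from log2 signals rounded as printed here. The fit was tested on simulated data.

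Where a group had no detection, the fold is a bound against whichever is higher on each array, that probe's signal or the dimmest detected signal. All members were described, grouped by role, with up to 3 genes per related list by size of called change, and other genes of these lists chosen after their values were seen. Members and lists were chosen with earlier results of these data known. Probe sequences were not used, so a probe may bind close paralogs. The number of arrays limits the precision. Alternatives changed background, offset, scaling, filter, probe choice, table, variance model, replicate block and each array in turn.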

Additional observations from a re-analysis of the deposited data

How the results depend on the processing

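Of 605 comparisons of a tested transport gene with an alternative setting, 570 kept direction and side of the threshold, 21 lost the call, 9 gained one and 5 changed sign, all 5 in genes that were not called. The calls gained were 4 for Xpo6, 2 each for Nup62 and Kpna6 and 1 for Nup155. The number of transport genes that changed, 29, was 25 to 30 without 1 array and 26 to 30 in the other settings. The share of all items that changed, 62.5% in the main fit, was 56.8% to 61.9% without 1 array. In the other settings it ran from 23.3% with no detection filter to 67.3% with detection on all 6 arrays. Of the 29, 25 were called in every setting that measured them, and Ipo8, Kpna1, Ipo9 and Nup93 were not. The 25 include Xpo4, whose test carries no weight. The titles share replicate numbers across groups, but same-numbered arrays deviated together at correlations of only 0.117, 0.054 and 0.0037, and 3 of 6 arrays correlated best with their own number, so no pairing was assumed. With the replicate block, 25 transport genes rose in place of 26, Kpna1 having an adjusted p of 0.0557, and 7324 items changed in place of 7294. Ndc1 had a log2 fold change of -0.0149 with median scaling, and -0.11 to 0.13 without 1 array. Without 1 array the value was -0.023 to 0.18 for Cse1l, -0.035 to 0.17 for Thoc3, -0.19 to 0.028 for Ddx19b, -0.20 to 0.11 for Ncbp2, -0.011 to 0.19 for Poldip3 and -0.035 to 0.11 for Chtop, and with the mean of probes it was 0.10 for Ddx19b. The cause of these sign changes was not tested. Without background correction 3 of 38 fold changes moved by over 1.5 times, those of Ipo7, Nup50 and Nup98. Small changes can hardly cross that limit, and the size of other dim genes also depended on the setting. The lowest log2 fold change over the settings was 0.19 for Nup107 (main fit 0.63), 0.20 for Xpo7 (0.62) and 0.32 for Xpo5 (0.82). It was 0.31 for Kpnb1 (main fit 0.70), whose adjusted p reached 0.0499. No group was large enough for a test of outlying arrays. Signals near background limit Xpo1, Nup153, Nup188, Tnpo1 and most importin alpha genes.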
